A study of Homo sapiens with 22 samples.

Results

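The loci of 10 genes of the Notch pathway were examined for regions of open chromatin and of transcription factor binding in human prostate cancer cell lines. The genes were the receptors NOTCH1, NOTCH2 and NOTCH3, the ligands DLL1, DLL4, JAG1 and JAG2, and the transcription factors HES1, HES6 and HEY1, chosen by name because Notch signalling opposes the neuroendocrine fate. A locus was the gene body with 50 kb on each side (GENCODE gene models on hg19), and every enriched region that touched it was taken. The 10 loci were 102.4 to 289.2 kb long, 1.39 Mb in all, and held 887 of the 871377 regions in the 22 deposited lists, at 10 of 20163 protein-coding genes. The study profiled the pioneer factor FOXA2 and the AP-1 subunits JUN and FOSL1 by ChIP-seq, which sequences DNA recovered with an antibody, together with the active enhancer and promoter marks H3K27ac and H3K4me2. It also used ATAC-seq, in which a transposase marks accessible DNA.

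Of the 3 lines, PC3 was derived from a metastasis to bone and lacks the androgen receptor. NCI-H660 models neuroendocrine prostate cancer, and LNCaP is luminal and keeps the androgen receptor. In PC3, ATAC-seq, H3K27ac and FOXA2 were profiled under vehicle, FOXA2 also after 4 h of the LSD1 inhibitors ORY-1001 at 10 μM or C12 at 0.5 μM, and JUN and FOSL1 after control siRNA (siNC) or siFOXA2. The title of the H3K27ac sample says vehicle and its file is named for siNC, and the title was followed. A further pair of PC3 vehicle FOXA2 ChIPs carried no antibody label, and these are named as further ChIPs wherever they are used. Elsewhere the PC3 FOXA2 regions are those of the vehicle list profiled beside the inhibitors. In NCI-H660, ATAC-seq, H3K4me2 and FOXA2 were profiled under vehicle, FOXA2 also after 4 h of ORY-1001 at 10 μM, and JUN after siNC or siFOXA2. In LNCaP, JUN was profiled after siNC or siFOXA1 and in puromycin-selected stable lines made by lentiviral infection, 1 overexpressing FOXA2 (FOXA2OE) and 1 the mutant FOXA2K265R, and FOXA2 was profiled in FOXA2OE. Each group had 1 list, except for the further FOXA2 ChIPs with 2, so no difference between conditions could be tested, and intervals below cover counting error only. The number of reads behind each list is unknown.

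Notch receptors are cleaved after they bind a ligand on a neighbouring cell, and the freed intracellular domain joins the DNA-binding protein RBPJ to switch on target genes. HES1 and HEY1 are repressors among those targets, and HES1 holds down proneural factors. HES6 is a relative that counteracts HES1. FOXA2 is a forkhead factor that can bind closed chromatin, and JUN binds DNA as part of the AP-1 dimer. Binding near a gene does not show that it regulates that gene, and 7 of the 10 loci also held the start of at least 1 other protein-coding gene. The listed score ranks regions within a list. It appears to be 10 times the −log10 of the q-value, so a low score means that a region lay near the calling threshold. Scores of different lists share no common scale, because depth and threshold may differ. Where a place is given its score in a list and then in another, the pair does not measure a change in binding.

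The sequences of 6 regions are printed first, since the results below turn on them. Each covers the centre of the region and 100 bases on either side of it, on the plus strand of hg19, 5′ to 3′. Capitals mark matches to the forkhead motif (T, A or G, TTT, A or G, C or T) or to the AP-1 motif TGACTCA, each on either strand. The first came from an intron of NOTCH2 at chr1:120516607-120517032 and was the highest-scoring PC3 FOXA2 region that also held JUN. The DLL1 sequence came from chr6:170589089-170589397, downstream of the gene, and was the highest-scoring NCI-H660 FOXA2 region that also held JUN. The first HES1 sequence, at chr3:193852583-193852884 just upstream of the start, had the highest score among FOXA2 regions called in both lines. The second NOTCH2 sequence, at chr1:120490090-120490479 in another intron, came from the highest-scoring PC3 FOXA2 region absent after either inhibitor. The last pair was picked after values were seen. It comprised the highest-scoring PC3 JUN region outside the HEY1 locus, upstream of HES1 at chr3:193807295-193807725, and the highest-scoring one lost under siFOXA2, upstream of JAG1 at chr20:10686558-10687017.
NOTCH2 intron, FOXA2 and JUN in PC3: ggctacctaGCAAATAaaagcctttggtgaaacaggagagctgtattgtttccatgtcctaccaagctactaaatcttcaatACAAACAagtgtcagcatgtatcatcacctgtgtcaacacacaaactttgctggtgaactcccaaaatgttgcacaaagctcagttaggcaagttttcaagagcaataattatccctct
DLL1 downstream, FOXA2 and JUN in NCI-H660: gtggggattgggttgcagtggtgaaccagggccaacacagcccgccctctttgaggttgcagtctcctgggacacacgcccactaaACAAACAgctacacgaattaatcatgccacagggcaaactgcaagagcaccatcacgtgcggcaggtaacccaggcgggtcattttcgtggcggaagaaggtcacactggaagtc
HES1 upstream, FOXA2 and JUN in both lines: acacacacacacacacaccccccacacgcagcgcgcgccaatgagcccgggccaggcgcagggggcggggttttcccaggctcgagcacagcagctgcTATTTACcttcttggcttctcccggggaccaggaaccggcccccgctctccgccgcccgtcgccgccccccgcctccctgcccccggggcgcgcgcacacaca
NOTCH2 intron, FOXA2 absent after either inhibitor: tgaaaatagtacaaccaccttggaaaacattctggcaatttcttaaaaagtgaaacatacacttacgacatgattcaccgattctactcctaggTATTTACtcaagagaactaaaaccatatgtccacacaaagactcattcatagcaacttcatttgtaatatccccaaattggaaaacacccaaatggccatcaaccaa
HES1 distal, JUN in both lines: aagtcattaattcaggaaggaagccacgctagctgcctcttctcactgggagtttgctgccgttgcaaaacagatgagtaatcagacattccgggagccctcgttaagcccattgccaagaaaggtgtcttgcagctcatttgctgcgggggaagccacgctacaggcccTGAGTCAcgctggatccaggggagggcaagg
JAG1 upstream, JUN lost under siFOXA2: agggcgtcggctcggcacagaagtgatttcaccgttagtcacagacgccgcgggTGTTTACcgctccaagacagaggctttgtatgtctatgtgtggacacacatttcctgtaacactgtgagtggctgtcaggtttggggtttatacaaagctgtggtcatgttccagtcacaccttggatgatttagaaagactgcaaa

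The distal HES1 window held 1 AP-1 match and no forkhead match, whereas the other 5 windows held forkhead matches and none for AP-1. The NOTCH2 window with FOXA2 and JUN had 2 forkhead matches and each of the remaining 4 had 1. The HES1 window next to the start also held 1 match to TGGGAA, the core read by RBPJ, searched on either strand and left in lower case. A match describes letters and does not show a bound site.

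The labels of the lines were checked against marker genes. All 6 neuroendocrine markers reported (CHGA, SYP, INSM1, NCAM1, SCG3 and NEUROD1) had an accessible promoter in NCI-H660, defined as an ATAC region within 1 kb of a transcription start, and an H3K4me2 region there. In PC3, 4 of the 6 promoters were accessible and 1, that of SYP, carried H3K27ac. Of 5 markers of non-neuroendocrine cells (CD44, VIM, YAP1, CAV1 and ANXA1), 5 had an accessible promoter in PC3 and 4 in NCI-H660, where that of ANXA1 was not accessible. Over all protein-coding genes, 77.5% of promoters were accessible in PC3 and 74.6% in NCI-H660. H3K27ac was present at 68.0% in PC3 and H3K4me2 at 74.5% in NCI-H660. Accessibility thus differed between the lines only at CHGA, NEUROD1 and ANXA1.

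All 10 loci held an ATAC region in both lines, as did 99.1% of protein-coding genes in PC3 and 95.9% in NCI-H660. The ATAC lists held 223 regions at the loci in PC3 and 106 in NCI-H660, out of 210960 and 99959. The PC3 list was longer throughout, and the log2 ratio of PC3 to NCI-H660 at the loci relative to that of the whole lists was 0.00 (95% interval -0.34 to 0.33). By gene this relative log2 ratio ran from -1.22 at DLL1 (10 regions in PC3 and 11 in NCI-H660, interval -2.45 to 0.02) to 1.04 at NOTCH1 (26 and 6, interval -0.24 to 2.32). Both lay outside the quartiles over all genes, -0.55 and 0.46, but neither interval excluded 0. Accessible regions were dense here. PC3 had 160 per Mb (140 to 183) against 84.3 over the windows of all protein-coding genes, and NCI-H660 had 76.2 (62.4 to 92.1) against 40.9.

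FOXA2 and JUN, like ATAC regions, were called more densely at the loci than over the windows of all protein-coding genes. For these background densities, overlapping windows of all genes were merged, giving 1881 Mb. The densities are thus not matched for gene length or spacing, and an excess particular to these factors was not tested. For FOXA2 under vehicle the density was 18.7 regions per Mb in PC3 (12.2 to 27.4) against 8.5 around all genes, and 10.1 in NCI-H660 (5.5 to 16.9) against 4.26. For JUN after siNC it was 15.8 in PC3 (9.91 to 23.9) against 8.98, and 17.2 in NCI-H660 (11.1 to 25.7) against 7.41. The regions were spread unevenly. FOXA2 was called at 7 of the 10 loci in PC3, where 54.1% of protein-coding genes had a region, and at 6 in NCI-H660, where 37.6% did. JUN was called at 5 loci in PC3 against 62.8% of all genes, and at 8 in NCI-H660 against 66.2%. NOTCH2, the longest locus, held 7 of the 26 PC3 FOXA2 regions and 10 of the 24 NCI-H660 JUN regions. JAG2 held none for JUN in either line, and NOTCH3 none for FOXA2. The start of NOTCH2 has near-identical copies on the same chromosome (the NOTCH2NL genes), and how reads with several possible origins were handled was not given in the sources used here, so positions in that part of the gene are uncertain.

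**Figure D1:**
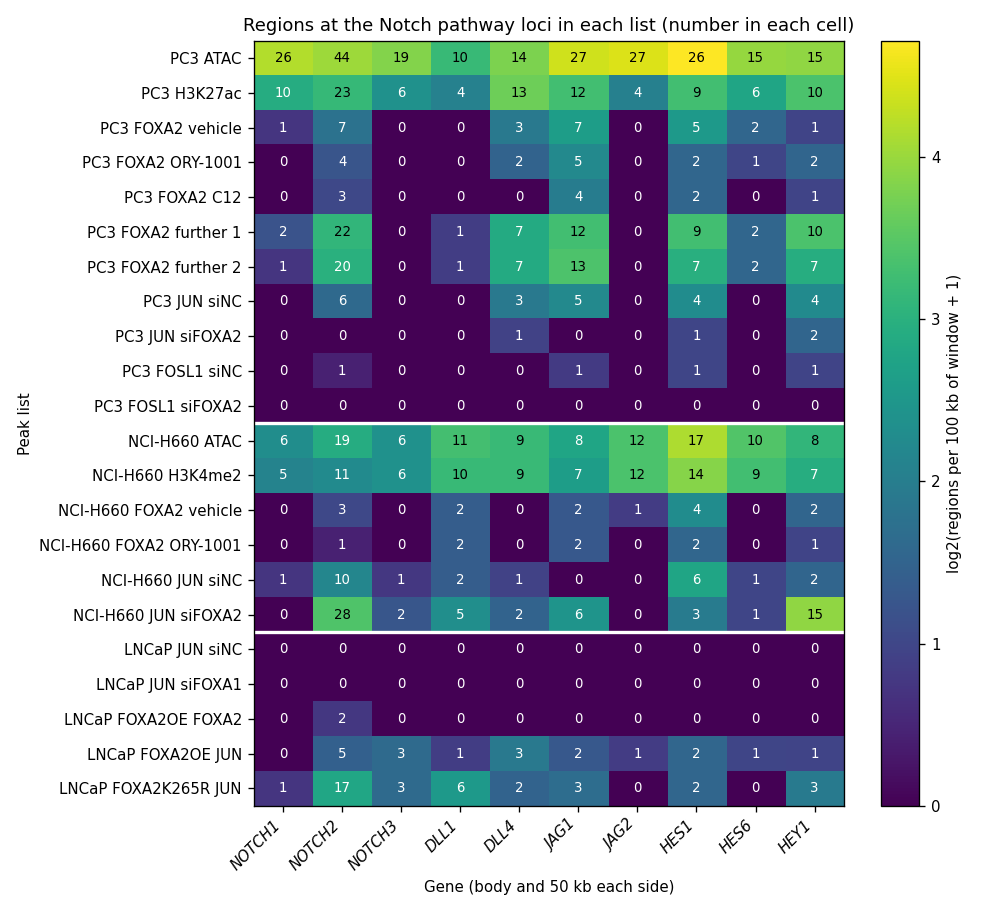
Number of regions (digits) at each of the 10 loci (columns) in each of the 22 lists (rows); colour is log2 of regions per 100 kb of window plus 1, and white lines separate PC3, NCI-H660 and LNCaP. NOTCH2, JAG1 and HES1 carried 7, 7 and 5 of the 26 PC3 FOXA2 regions, and the siFOXA2 JUN list of NCI-H660 held 28 regions at NOTCH2 and 15 at HEY1.

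The promoters of 8 of the 10 members were accessible in both lines. In PC3 all 10 had an ATAC region and an H3K27ac region within 1 kb of a start, against 77.5% and 68.0% of protein-coding genes. In NCI-H660, 8 had an ATAC region and 10 an H3K4me2 region, against 74.6% and 74.5%. The 2 promoters without an ATAC region in NCI-H660 were those of NOTCH3 and JAG2, and the PC3 calls there were weak. At NOTCH3 the PC3 ATAC region was 127 bp long with a score of 30, and at JAG2 the scores were 41 and 94, where the median of the PC3 list was 112. With the PC3 list cut to the length of the NCI-H660 list by score, 8 promoters were accessible in PC3 as well. At NOTCH3 the NCI-H660 H3K4me2 region ranked 361 of 70388 in its list by score (1099). The PC3 H3K27ac region there ranked 71668 of 90468 (score 52). These are different marks in different lines, so they do not compare the activity of the gene.

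The DLL1 promoter had regions at 2 starts. GENCODE gives DLL1 a canonical start and a second start next to that of the neighbouring gene FAM120B. The PC3 H3K27ac region (score 1090) and the strong PC3 ATAC region (score 2672) lay at the second start. The highest NCI-H660 regions lay there too, with ATAC at 1286, ranked 8278 in its list, and H3K4me2 at 236 and 242. At the canonical start PC3 had no H3K27ac region and an ATAC region of score 53, while NCI-H660 had ATAC regions of scores 161 and 472 and an H3K4me2 region of score 127. By score the stronger of these NCI-H660 ATAC regions ranked 33701 of 99959, and the PC3 region ranked 141135 of 210960.

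In the vehicle FOXA2 lists profiled beside the inhibitors, no region fell within 1 kb of a member's start in either line. Each of the further PC3 FOXA2 ChIPs, whose lists were longer (77822 and 62714 regions against 24038), had 1 such region, at HES1, with scores of 728 and 615. JUN did so at NOTCH2 and HES1 in both lines. At NOTCH2 the promoter JUN region scored 37 in PC3 and 69 in NCI-H660. At HES1 it scored 182 in PC3 and 42 in NCI-H660. Those HES1 JUN regions reached just inside the 1 kb limit. The vehicle FOXA2 regions that they overlapped, centred 1.2 kb upstream, ended just outside it. The HES1 JUN region of PC3 scored above the median of its list (150), and the other 3 JUN regions scored below theirs (150 in PC3 and 78 in NCI-H660).

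**Figure D2:**
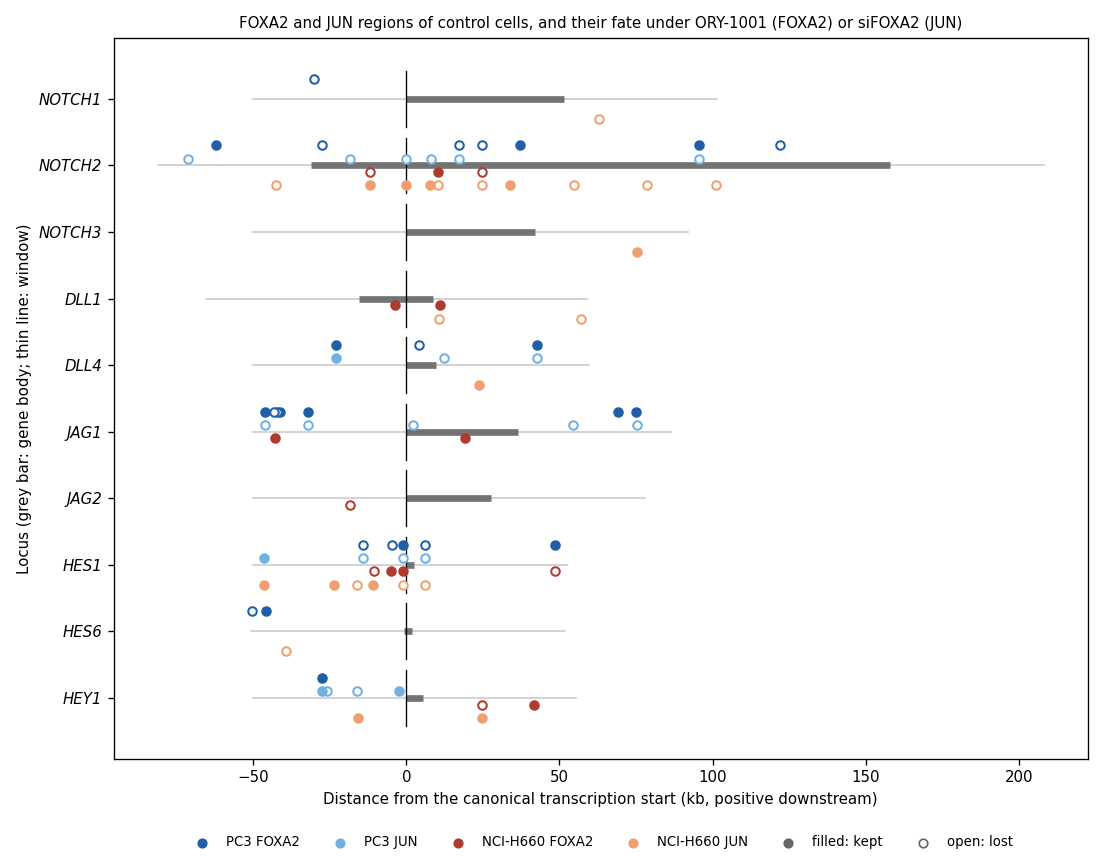
Position of each FOXA2 (vehicle) and JUN (siNC) region by distance of its centre from the canonical start in kb, positive downstream, for PC3 (blue) and NCI-H660 (red and orange); filled points were kept under ORY-1001 (FOXA2) or siFOXA2 (JUN) and open points were lost. PC3 JUN points are mostly open (18 of 22), and HES1 has points of both lines on both sides of its start.

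Among the receptors, NOTCH2 held nearly all FOXA2 and JUN regions. The strongest PC3 FOXA2 region of all 10 loci lay in a NOTCH2 intron 95.5 kb downstream of the start (score 968, sequence above), with JUN at 179 and H3K27ac present. It was not accessible in NCI-H660 and no NCI-H660 FOXA2 or JUN control region touched it. In NCI-H660 the leading NOTCH2 region lay 10.2 kb downstream of the start, with FOXA2 at 114 and JUN at 257. That place was accessible in PC3 but was called there for neither factor. A weak common place 24.6 kb downstream had FOXA2 at 27 in PC3 and at 98 in NCI-H660, the latter with JUN at 73. JUN was common to both lines at the promoter and 7.85 kb downstream, where it scored 88 in PC3, with FOSL1 at 56, and 116 in NCI-H660.

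At the NOTCH1 locus, PC3 had 1 FOXA2 region 30.3 kb upstream (score 127). The 1 NCI-H660 JUN region, of score 36, sat at the promoter of the neighbour SEC16A. NOTCH3 had no FOXA2 region and no PC3 JUN region. Its 1 NCI-H660 JUN region (score 110) sat at the promoter of ILVBL, a neighbouring gene. Neither receptor therefore had a control JUN region in NCI-H660 that lay closer to it than to another gene's start.

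Among the ligands, JAG1 carried 7 FOXA2 and 5 JUN regions in PC3 against 2 and 0 in NCI-H660. The highest-scoring JAG1 region for FOXA2 in PC3, 75.1 kb downstream of the start, lay over a coding exon of the neighbour SLX4IP (score 918), with JUN at 590 and FOSL1 at 61. A further FOXA2 region of score 646 followed 69.2 kb downstream in an intron of the same gene. Upstream, 4 FOXA2 regions clustered between 41.2 and 46 kb from the start with scores of 84 to 333. The region 32.1 kb upstream had FOXA2 at 514 and JUN at 845 (sequence above), and it was closed in NCI-H660. NCI-H660 FOXA2 at JAG1 scored 127 in an intron 19.3 kb downstream and 89 at 42.8 kb upstream. The latter overlapped a PC3 FOXA2 region of score 315.

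DLL1 and JAG2 showed the reverse, with few regions. DLL1 had no FOXA2 and no JUN control region in PC3 and 2 of each in NCI-H660. The strongest of the 14 NCI-H660 FOXA2 regions was the DLL1 region 10.9 kb downstream (score 385, sequence above), which also held JUN at 98. It was accessible in PC3, and the further PC3 FOXA2 ChIPs called it at 130 and 50. The other DLL1 FOXA2 region (score 175) was 3.7 kb upstream of the canonical start and within 1 kb of an alternative start of FAM120B. JAG2 had a single FOXA2 region, in NCI-H660, 18.5 kb upstream (score 148).

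DLL4, a ligand known mainly from blood vessels, had 3 FOXA2 and 3 JUN regions in PC3. The factors coincided at 2 places. At 23.1 kb upstream FOXA2 scored 231 and JUN 285, and at 42.7 kb downstream FOXA2 scored 110 and JUN 198. NCI-H660 had no FOXA2 region there, and its 1 JUN region (score 210) sat at the promoter of the neighbour CHAC1.

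HES1 was the locus where the lines had most in common. PC3 had 5 FOXA2 and 4 JUN regions and NCI-H660 had 4 and 6. When the regions of the control FOXA2, JUN and FOSL1 lists were merged into 58 places, 10 places held regions of both lines, and 5 of the 10 were at HES1, 3 at NOTCH2, 1 at JAG1 and 1 at HEY1. All 10 were accessible in both lines. PC3 regions alone made up 27 places, of which 26 were accessible in PC3 and 5 in NCI-H660. NCI-H660 regions alone made up 21, of which 17 were accessible in NCI-H660 and 12 in PC3. Both further PC3 FOXA2 ChIPs called 4 of these 21, of which 1 was at DLL1, 1 at JAG1 and 2 at HEY1. The 4 NCI-H660 JUN regions outside accessible chromatin of that line were all at NOTCH2 and scored 18 to 30.

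The HES1 place 1.22 kb upstream of the start was called for both factors in both lines. FOXA2 scored 352 in PC3 and 167 in NCI-H660, and JUN 182 and 42. In PC3 it stayed called for FOXA2 under ORY-1001 (316) and C12 (178), and in NCI-H660 under ORY-1001 (108). JUN was no longer called there after siFOXA2 in either line. Regions of 14 of the 22 lists touched it, among them LNCaP FOXA2K265R JUN (75). At 4.85 kb upstream FOXA2 was called in both lines (219 in PC3 and 50 in NCI-H660), and at 48.4 kb downstream likewise (237 and 85). At 5.96 kb downstream JUN scored 250 in PC3 and 92 in NCI-H660, with PC3 FOXA2 at 70.

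The distal HES1 place 46.4 kb upstream, the one with the AP-1 match, differed from these. It held JUN at 853 and FOSL1 at 257 in PC3 and JUN at 138 in NCI-H660, with no FOXA2 region in the vehicle list of either line. Of the further PC3 FOXA2 ChIPs, 1 called it at 68, below the median of its list (131). JUN was kept there after siFOXA2 in both lines, at 129 in PC3 and 252 in NCI-H660, while FOSL1 was not. The strongest NCI-H660 JUN region of all 10 loci also lay at HES1, 23.5 kb upstream (score 554), where PC3 was accessible but had no JUN region.

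At HEY1 the leading regions of the lines lay at different places. In PC3 the region 27.4 kb upstream, chr8:80707231-80707665, had the highest JUN score of all 10 loci (1188), with FOXA2 at 218 and FOSL1 at 141, and it was closed in NCI-H660. FOXA2 there remained called under ORY-1001 (121) and C12 (91), and JUN after siFOXA2 (326). In NCI-H660 the leading places were downstream of the start. FOXA2 scored 299 at 41.6 kb, and at 24.6 kb JUN scored 304 and FOXA2 88. Both places were also called by the further PC3 FOXA2 ChIPs, at 161 and 136 for the first, while the higher of the calls at the second scored 300. JUN was common to both lines 15.9 kb upstream, with scores of 58 in PC3 and 46 in NCI-H660. HES6 had no factor region within 10 kb. Its 2 PC3 FOXA2 regions (scores 303 and 77) and its 1 NCI-H660 JUN region (score 52) lay 39.3 to 50.4 kb away in or at the start of PER2, a clock gene.

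In numbers, 5 of the 26 PC3 FOXA2 regions overlapped an NCI-H660 FOXA2 region (19.2%, 95% Wilson interval 8.51 to 37.9%), where 11.1% of the whole PC3 list did. Seen from NCI-H660 it was 5 of 14 (35.7%, 16.3 to 61.2%) against 22.5%. Each of the further PC3 FOXA2 ChIPs, with longer lists, overlapped 9 of the 14 (64.3%, 38.8 to 83.7%), against 31.5% and 28.4% of the NCI-H660 list. For JUN it was 6 of 22 PC3 regions (27.3%, 13.2 to 48.2%) against 12.8%, and 6 of 24 NCI-H660 regions (25%, 12 to 44.9%) against 16.5%. Against the PC3 vehicle and siNC lists, all but the first JUN share had intervals that took in the share of the whole list. The interval of that JUN share took in the 14.0% expected if each region had the share of its score decile in the whole list. Around all protein-coding genes 13.2% of PC3 JUN regions were shared. The JUN share at the loci was 15.8% (5.52 to 37.6%) among regions scoring at least 50, for which the whole-list share is not given. It was 17.6% (8.35 to 33.5%) with windows of 100 kb. For ATAC, 70 of 223 PC3 regions were shared (31.4%, 25.7 to 37.8%) against 21.5%, and 65 of 106 NCI-H660 regions (61.3%, 51.8 to 70%) against 41.2%. Around all protein-coding genes 24.3% of PC3 ATAC regions were shared, and 23.5% would be shared at the loci if each region had the share of its score decile in the whole list. Neighbouring regions are not independent, so these intervals are too narrow. The ATAC lists, and likewise the JUN lists, of the 2 lines name different processing folders, so folder and line cannot be told apart, whereas the FOXA2 lists name the same one.

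FOXA2 and JUN coincided at the loci in shares whose intervals all took in those of the whole lists. JUN was called at 11 of the 26 FOXA2 regions in PC3 (42.3%, 25.5 to 61.1%) against 44.3% of the list, and 11 of 22 JUN regions overlapped FOXA2 (50%, 30.7 to 69.3%) against 44.5%. In NCI-H660, 7 of 14 FOXA2 regions overlapped JUN (50%, 26.8 to 73.2%) against 36.4%, and 7 of 24 JUN regions overlapped FOXA2 (29.2%, 14.9 to 49.2%) against 23.2%.

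Most of the bound regions were accessible. In PC3, 25 of 26 FOXA2 regions (96.2%) and 22 of 22 JUN regions were, against 89.3% and 96.0% of the lists. In NCI-H660, 14 of 14 FOXA2 regions and 20 of 24 JUN regions (83.3%) were, against 90.9% and 86.0%. H3K27ac covered 22 of 26 PC3 FOXA2 regions (84.6%, 66.5 to 93.8%), more than the 58.7% of the whole list and the 62.5% given by their score deciles. All 7 at NOTCH2 were covered, and without NOTCH2 it was 15 of 19 (78.9%). H3K27ac regions were themselves dense at the loci, with 69.7 per Mb against 37.1 over the windows of all protein-coding genes. Of the PC3 JUN regions, H3K27ac covered 19 of 22 (86.4%, 66.7 to 95.3%) against 77.3%. H3K4me2 covered 11 of 14 NCI-H660 FOXA2 regions (78.6%, 52.4 to 92.4%) against 62.7%, and 17 of 24 JUN regions (70.8%, 50.8 to 85.1%) against 70.4%. NCI-H660 FOXA2 regions at the loci lay mostly in DNA that was also open in PC3, 10 of 14 (71.4%, 45.4 to 88.3%), where 35.2% of that list did. Without NOTCH2 it was 63.6%. Of all NCI-H660 ATAC regions at the loci, 65 of 106 (61.3%) overlapped a PC3 ATAC region, against 41.2% of that list. Of the PC3 FOXA2 regions, 9 of 26 (34.6%, 19.4 to 53.8%) were open in NCI-H660, against 22.6%.

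Motif matches within 100 bp of each centre were counted at the loci and in the whole lists. Forkhead matches were present in 84.6% of PC3 FOXA2 regions at the loci (22 of 26) against 77.3% of the list, and in 57.1% in NCI-H660 (8 of 14, 32.6 to 78.6%) against 75.9%. AP-1 matches were present in 30.8% of PC3 FOXA2 regions against 26.4%, and in 14.3% in NCI-H660 against 6.30%. Of JUN regions, 45.5% in PC3 (10 of 22) held the AP-1 motif, against 49.5% of the list, but 12.5% in NCI-H660 (3 of 24) against 13.8%. Forkhead matches were in 40.9% and 20.8% of the JUN regions against 43.4% and 28.4%. The RBPJ core TGGGAA was found in 23.1% of PC3 FOXA2 regions against 14.4%, in 35.7% of NCI-H660 FOXA2 regions (5 of 14, 16.3 to 61.2%) against 14.3%, and in 22.7% and 16.7% of PC3 and NCI-H660 JUN regions against 16.5% and 16.2%. The NCI-H660 FOXA2 share of the RBPJ core, on 5 regions, was the only motif share here whose interval left out that of the list. It was singled out from all the shares in this paragraph, with no allowance for their number.

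The LSD1 inhibitor lists asked whether FOXA2 stayed on chromatin when the demethylase was blocked. In PC3, 14 of the 26 vehicle FOXA2 regions at the loci were still called under ORY-1001 (53.8%, 35.5 to 71.2%), where 36.8% of the whole list was. From their score deciles 43.6% would be. The ORY-1001 list added 2 regions of 16 that overlapped no vehicle region (12.5%, 3.50 to 36.0%), against 35.6% of that list. The higher of these lay 24.8 kb downstream of HEY1 (score 118), at a place that held FOXA2 and JUN in NCI-H660 and that both further PC3 FOXA2 ChIPs called. Under C12, 10 of 26 were kept (38.5%, 22.4 to 57.5%) against 29.6%, and 36.6% from the score deciles. Both lists were set against the same vehicle list and the doses differed, so they are given side by side. All 26 vehicle regions were called in each of the further PC3 FOXA2 ChIPs, against 90.4% of the whole list.

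JAG1 kept 5 of its 7 PC3 FOXA2 regions under ORY-1001 and 4 under C12, NOTCH2 3 of 7 under each and HES1 2 of 5 under each. DLL4 kept 2 of 3 under ORY-1001 and 0 under C12, HES6 1 of 2 and 0, and NOTCH1 0 of 1 under either. The leading NOTCH2 region scored 968 in the vehicle list, 707 in that of ORY-1001 and 354 in that of C12. The region over the SLX4IP exon scored 918, 730 and 554. The NOTCH2 intron region of score 443 was absent from both inhibitor lists. A HES1 region 14.1 kb upstream (score 441, with JUN at 218) was absent as well. Kept regions had the higher vehicle scores, with medians of 270 for the kept and 161.5 for the lost under ORY-1001 and of 342.5 and 204 under C12, although the ranges overlapped.

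In NCI-H660, 8 of 14 FOXA2 regions were kept under ORY-1001 (57.1%, 32.6 to 78.6%), where 68.4% of the list was. Both DLL1 regions were kept, the leading one at 379 from 385, and so were both JAG1 regions. HES1 kept 2 of 4, HEY1 1 of 2, NOTCH2 1 of 3 and JAG2 0 of 1. Lost regions scored 82 to 148 and kept regions 50 to 385. The list as a whole was nearly as long under ORY-1001 (11469 regions) as under vehicle (11886), and at the loci the number went from 14 to 8. The log2 ratio at the loci was -0.81 with an interval of -2.06 to 0.45, which took in the -0.05 of the whole list.

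**Figure D3:**
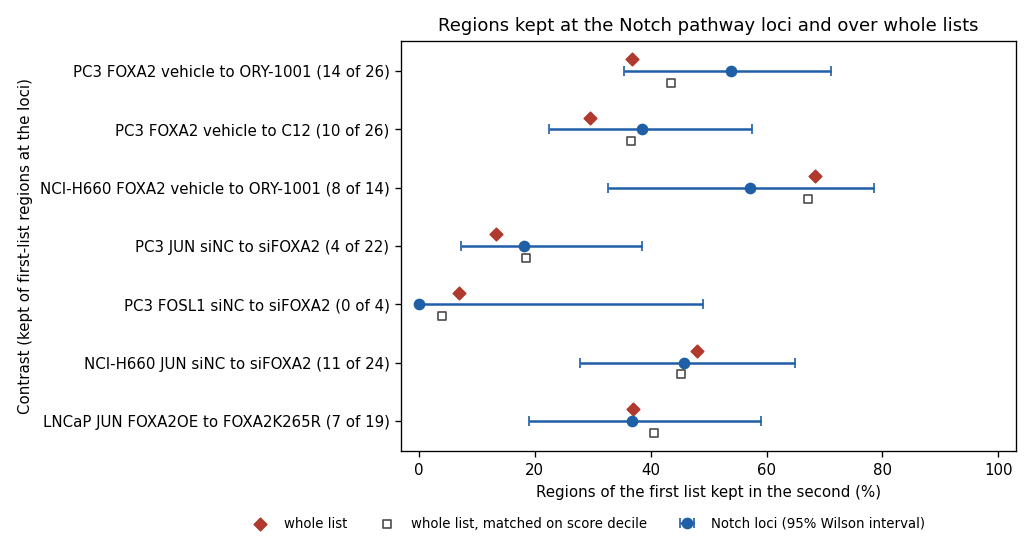
Percentage of first-list regions at the loci that were also called in the second list (blue, with 95% Wilson intervals), beside the whole first list (red diamonds) and beside the share given by the score deciles of the whole list (open squares). All 7 intervals at the loci take in the score-matched share, which was 43.6% beside 53.8% for PC3 FOXA2 under ORY-1001.

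**Figure D4:**
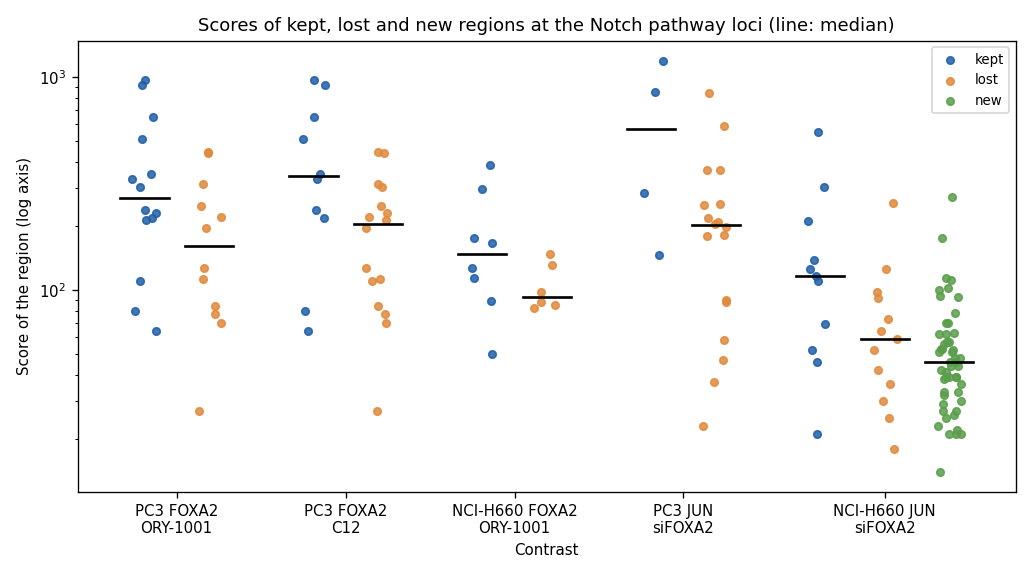
Score (log axis) of each region at the loci by contrast, coloured as kept, lost or new, with the median as a black line. Kept regions have the higher median in all 5 contrasts, and the new JUN regions of NCI-H660 under siFOXA2 have a median score of 46.

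Silencing FOXA2 asked how far JUN binding depends on it. In PC3, 4 of 22 JUN regions at the loci were kept after siFOXA2 (18.2%, 7.31 to 38.5%), where 13.4% of the list was, and 18.5% from the score deciles. None of the 4 regions after siFOXA2 was new (upper bound 49.0%), where 21.5% of the list was. Of the 11 JUN regions that overlapped vehicle FOXA2, 2 were kept, and of the 11 that did not, 2 were kept as well, where 18.3% and 9.42% were in the list. The kept ones were the HEY1 regions 27.4 kb (1188 to 326) and 2.54 kb upstream (146 to 69), the HES1 region 46.4 kb upstream and the DLL4 region 23.1 kb upstream (285 to 95). All 6 JUN regions at NOTCH2 and all 5 at JAG1 were lost, including the JAG1 region of score 845 and the SLX4IP exon region of score 590. FOSL1 had 4 regions after siNC, 1 each at NOTCH2, JAG1, HES1 and HEY1 with scores of 56 to 257, and 0 after siFOXA2 (0 of 4 kept, upper bound 49.0%, against 6.90% of the list).

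In NCI-H660 the JUN list grew after siFOXA2 from 18401 to 59452 regions, and at the loci from 24 to 62. Of the 24, 11 were kept (45.8%, 27.9 to 64.9%), where 48.0% of the list was. Of the 62, 51 were new (82.3%, 71.0 to 89.8%), where 85.2% of the list was. NOTCH2 received 24 of the new regions, HEY1 13, JAG1 6, DLL1 5, and NOTCH3, DLL4 and HES6 1 each. HES1 received none and went from 6 to 3. Most new regions scored low, with a median of 46, and 10 of the 51 were accessible in untreated NCI-H660 (19.6%, 11 to 32.5%), against 21.1% of new regions in the list. At a score of at least 100 the loci held 9 regions after siNC and 11 after siFOXA2, and the whole lists held 7746 and 4889. Whether the longer siFOXA2 list reflects the cells or the library was not tested. Without NOTCH2 the number went from 14 to 34.

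Of the 7 NCI-H660 JUN regions that overlapped vehicle FOXA2, 3 were kept after siFOXA2 (42.9%, 15.8 to 75%), and of the 17 that did not, 8 were kept (47.1%, 26.2 to 69.0%). In the list 42.4% and 49.7% were. The lost JUN regions included NOTCH2 10.2 kb downstream (257), DLL1 10.8 kb downstream (98) and the HES1 promoter (42), each of which held FOXA2 under vehicle. The HES1 regions 23.5 kb (554 to 153) and 46.4 kb upstream, the HEY1 region 24.6 kb downstream (304 to 169, with FOXA2 under vehicle) and the NOTCH2 promoter (69 to 145) were kept. The other kept regions with FOXA2 were those 11.9 kb upstream of NOTCH2 (52 to 70) and 10.8 kb upstream of HES1 (126 to 34). The highest new region was in an intron of NOTCH3, 4.9 kb downstream of the start at chr19:15306672-15307147 (score 272), which was accessible in NCI-H660 and not in PC3.

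**Figure D5:**
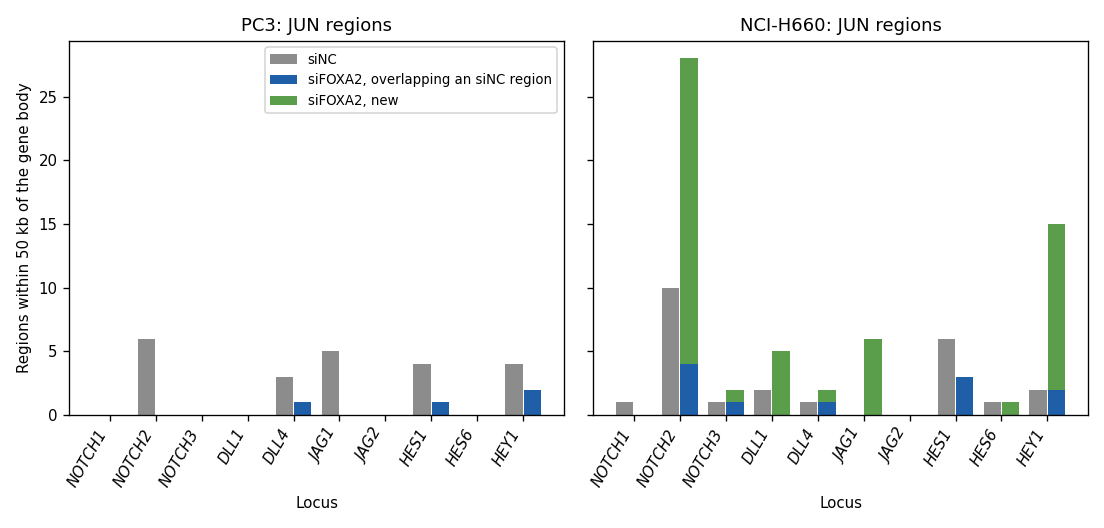
JUN regions at each locus after siNC (grey) and after siFOXA2 (blue where they overlap an siNC region, green where new) in PC3 (left) and NCI-H660 (right), 1 list per bar. PC3 went from 22 to 4 regions in all, and NCI-H660 from 24 to 62, with 28 at NOTCH2 and 15 at HEY1.

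In LNCaP neither the siNC nor the siFOXA1 JUN list, with 2421 and 1964 regions, had any at the loci. Of all protein-coding genes, 13.4% and 8.64% had a region in these lists. The shares of the siNC list kept under siFOXA1 (49.6%) and in FOXA2OE (17.9%) thus had no counterpart here. No list came from a vector control of the stable lines. The FOXA2OE JUN list, with 23994 regions of which 98.2% were new against siNC, held 19 at 9 of the 10 loci. Of all protein-coding genes, 79.5% had a region. All 19 were new, which the lack of siNC regions at the loci fixed in advance. The highest (score 313) lay in the same NOTCH3 intron, 4.8 kb downstream of the start, and it scored 1041 in the FOXA2K265R list. Of the 19, 7 overlapped a FOXA2K265R JUN region (36.8%, 19.1 to 59.0%) against 37.0%, and 30 of 37 FOXA2K265R regions were new (81.1%, 65.8 to 90.5%) against 81.3%. The kept places included the NOTCH2 promoter (111 to 115). The highest new one was 30.4 kb upstream of NOTCH1 (257), where PC3 had its NOTCH1 FOXA2 region. The FOXA2 list of FOXA2OE had 2 regions at the loci, both in introns of NOTCH2. The FOXA2OE and FOXA2K265R JUN lists name different processing folders in their region names, so folder and cell line cannot be told apart. The siNC JUN list holds coordinates alone, so its folder is unknown.

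A list of 34 further Notch pathway genes was examined in the same way. FOXA2 was called within 50 kb of 13 in both lines, of 5 in PC3 alone, of 5 in NCI-H660 alone and of 11 in neither. That made 18 of the 34 in each line, where 54.1% of protein-coding genes had a region in PC3 and 37.6% in NCI-H660. JUN was called near 20 in both, 7 in PC3 alone, 6 in NCI-H660 alone and 1, the ligand DLL3, in neither. That made 27 in PC3 and 26 in NCI-H660, against 62.8% and 66.2% of protein-coding genes. MAML2, a coactivator of the Notch complex, had 10 FOXA2 and 10 JUN regions in PC3 against 0 and 1 in NCI-H660. NUMB, an inhibitor of Notch, had 8 and 5 against 2 and 1. Their windows were long, at 466.6 and 283.5 kb, and a longer window can hold more regions. The longest window, that of MAML3 (537.4 kb), had 11 and 9 against 4 and 6. The PC3 FOXA2 and JUN lists were also longer than those of NCI-H660. RBPJ itself had 4 FOXA2 regions and 1 JUN region in each line. The promoters of 29 of the 34 were accessible in both lines, with DTX1, a Notch regulator, open in NCI-H660 alone and NOTCH4 in PC3 alone. In each line 30 were accessible, against 77.5% of protein-coding genes in PC3 and 74.6% in NCI-H660.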

How the data were processed

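Per the labels and the study's methods, the authors sheared formaldehyde-crosslinked chromatin for ChIP-seq, used transposase-based libraries for ATAC-seq, aligned reads to hg19 with BWA and called enriched regions with MACS2. The submitters' processing notes name BWA 0.7.17-r1188, SAMtools 1.9, MACS2 2.1.4 and FastQC 0.11.9. Pooling, control libraries and MACS2 settings are not given in the sources used here. In 20 of the 22 lists the authors deposited a whole-number score, whose range fits 10 times the −log10 of a MACS2 q-value. The LNCaP siNC JUN and FOXA2OE FOXA2 lists hold coordinates alone. No list gives read numbers, so depth is unknown and precision is limited to counting error.

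Groups came from the sample titles. The title was followed for FOXA2K265R, whose cell line label says FOXA2OE, and for PC3 H3K27ac, whose file is named for siNC. Gene bodies came from GENCODE 44 lifted to hg19. Regions counted as overlapping at 1 bp or more. A region was kept, lost or new by that rule. A promoter was 1 kb on either side of the start of a protein-coding transcript, and distances run from the canonical start to the region centre. Shares carry 95% Wilson intervals, and numbers Poisson intervals. For the score-matched share, each region at the loci took the kept share of its score decile in the whole list. This share, the counts without NOTCH2, the counts at higher scores, the split of JUN regions by FOXA2 and the overlap of NCI-H660 FOXA2 with the further PC3 ChIPs were added after the lists were seen. Motif matches were sought on either strand, up to 100 bp from the centre of a region. The overlap code was tested on simulated data. Python 3.11.15, numpy 2.4.6, scipy 1.17.1, pysam 0.24.0 and matplotlib 3.10.9 were used.

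The members, the further gene lists and the naming rule were chosen with earlier results of these data known. The rule names promoter states, the highest FOXA2 and JUN region of each member in each line, the highest kept, lost and new region of each contrast and up to 5 places with both factors in each line. Places named beside these, such as common places and kept JUN regions, were chosen after their values were seen. A pair of genes of the marker lists is not reported here.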

Additional observations from a re-analysis of the deposited data

Results flagged for a closer look

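JUN region numbers under siFOXA2 moved in opposite directions in the 2 lines at the loci. The number changed by -18 in PC3 (22 to 4 regions) and by 38 in NCI-H660 (24 to 62). At NOTCH2 the changes were -6 and 18, at JAG1 -5 and 6, at HEY1 -2 and 13 and at DLL4 -2 and 1. FOXA2 under ORY-1001 at HEY1 changed by 1 in PC3 and by -1 in NCI-H660. With 1 list per arm the difference between the lines was not tested. The whole JUN lists, with no minimum score, moved the same way as the loci, from 23890 to 4081 in PC3 and from 18401 to 59452 in NCI-H660. At a score of at least 100, JUN at the loci went from 16 to 2 regions in PC3 and from 9 to 11 in NCI-H660. The whole lists went from 16440 to 1845 and from 7746 to 4889, so at this score the whole lists were shorter in both lines. Scores of different lists share no common scale, so the same cut need not mean the same strength of binding in each.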

How the results depend on the processing

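Of 99 recomputed values of 16 results, 89 moved by less than the interval of the value as reported. With windows of 10 kb the share kept was 30.0% for PC3 FOXA2 under ORY-1001 and 62.5% for LNCaP JUN from FOXA2OE to FOXA2K265R. Where an overlap had to cover 50% of each region, the share kept for NCI-H660 JUN under siFOXA2 was 16.7%, PC3 FOXA2 shared with NCI-H660 7.69%, PC3 ATAC shared 17.9%, NCI-H660 FOXA2 with JUN 21.4% and PC3 FOXA2 found in both further ChIPs 76.9%. With scores of at least 50 the shared PC3 ATAC part was 39.6%. With both lists cut to the same length by score it was 50%, and the part found in both further ChIPs was 84.6%. With either further ChIP left out it was 100% in each case. The LNCaP siNC JUN list had 0 regions at the loci, so its contrasts gave no share. Causes of these moves were not tested, apart from the stricter overlap, which by construction can only lower a share. The PC3 JUN share common to the lines, 27.3% (13.2 to 48.2%), lay above the 12.8% of the whole list. That interval took in the 14.0% given by the score deciles. The lower bound fell to 8.35% with windows of 100 kb and 7.31% with the stricter overlap. It was 5.52% with scores of at least 50 (share 15.8%) and 9% with lists of equal length. The whole-list share under the stricter overlap, the score cut or equal length is not given. Those bounds therefore cannot be set against the 12.8%. No paired analysis was possible because each of the groups compared had 1 list. With 4 to 26 regions at the loci in the control FOXA2, JUN and FOSL1 lists of PC3 and NCI-H660, differences of less than about the printed intervals were not detectable, and unknown depth limits any statement on lengths of lists.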
